A study of Solanum lycopersicum with 9 samples.

Results

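The genes next to the places where the tomato transcription factor WRKY-B sits on chromatin were described here by their RNA levels. WRKY-B belongs to the WRKY family of plant transcription factors, which carry a zinc-binding DNA domain and are known to recognise W-box elements in promoters. Many act in stress and development, and a WRKY factor can raise or lower the gene it binds. A peak of chromatin immunoprecipitation sequencing (ChIP-Seq) marks a stretch of DNA that was recovered with the tagged protein, and the gene assigned to it is the closest one, which need not be a gene that the factor controls.

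The study's list held 2243 WRKY-B peaks, made from WRKY-B-GFP axillary buds, and 1978 of its rows carried a gene ID. All 1978 IDs belonged to different loci, a locus being the part of a tomato gene ID before its first dot. The 265 rows with no ID were the last ones of the list, and the IDs rose in order between 1914 of 1977 neighbouring rows. The ID column was therefore read as a list of loci, and no peak was tied to its own gene. Of these loci, 1716 had a gene model in the expression table and are called bound, which is 6.35% of the 27028 loci there. The other 25312 loci are called unbound, in the sense that the list does not hold them. For 262 listed loci there was no gene model to match, and they were not analysed. These were 33.7% of the 575 IDs of gene version 1, 14.0% of the 422 IDs of version 2 and 0.925% of the 973 IDs of version 3, so the bound loci that were measured lean to the later gene models. The fold changes and regulation types of the list were not used to choose any locus.

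RNA was measured in 9 libraries of 3 groups. The 3 OE libraries, OE1, OE30 and OE9, came from plants with WRKY-B-GFP under the 35S promoter, which is active in most plant tissues, and the labels give them as Compound raceme, flower. The 3 CK2 libraries are labelled Compound raceme, bud, and the 3 CK1 libraries monomaker, bud. The paper describes the plants as Ailsa Craig and the tissue as axillary buds. Its RNA-Seq compares only wild type and WRKY-B-GFP, with 3 biological replicates of pooled plants each, and it describes no further control group. These conflicts with the labels were not settled. By the labels OE differed from both controls in tissue, and from CK1 also in cultivar, so the transgene cannot be told apart from these. Whether 1, 30 and 9 number separate transgenic lines is not said, and the peak names carry the tag OE_9. The paper describes the peaks as overlapping ones from different biological replicates. Values are FPKM, fragment counts corrected for transcript length and library size. Read totals were not given, so the depth is unknown, and FPKM summed to 615715 to 684351 in OE and to 743707 to 769380 in the controls.

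WRKY-B itself (Solyc02g071130.3) was high in OE, as its label says. It had 74.0, 93.5 and 205.7 FPKM in OE1, OE30 and OE9, against 0.40, 0.40 and 0.08 FPKM in CK2 and 0.87, 0.71 and 0.55 FPKM in CK1. Its locus has no peak row in the list.

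Bound loci had higher RNA levels than unbound loci in all 9 libraries. The median bound locus had 5.31, 4.75 and 6.49 FPKM in OE1, OE30 and OE9, against 1.69, 1.43 and 1.97 FPKM for the median unbound locus. In CK2 the medians were 6.05, 5.94 and 5.995 FPKM for bound loci and 2.42, 2.33 and 2.34 FPKM for unbound loci. In CK1 they were 6.58, 6.71 and 6.51 FPKM for bound loci and 2.43, 2.42 and 2.43 FPKM for unbound loci. The bound and unbound medians thus never overlapped, and the lowest bound median, in OE30, lay above the highest unbound one. The ratio of the bound to the unbound median was 3.14 to 3.32 in OE, 2.50 to 2.56 in CK2 and 2.68 to 2.77 in CK1. The wider ratio in OE came with a lower unbound median, 1.70 ± 0.27 FPKM in OE, 2.36 ± 0.05 FPKM in CK2 and 2.43 ± 0.005 FPKM in CK1 (SD, n = 3 each). The bound median was 5.51 ± 0.89 FPKM in OE, 5.99 ± 0.05 FPKM in CK2 and 6.60 ± 0.10 FPKM in CK1 (SD, n = 3 each), so that of OE, with its wide spread, was less than 1 SD below that of CK2. In bulk RNA, fewer cells of a type and less RNA per cell cannot be told apart.

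**Figure D1:**
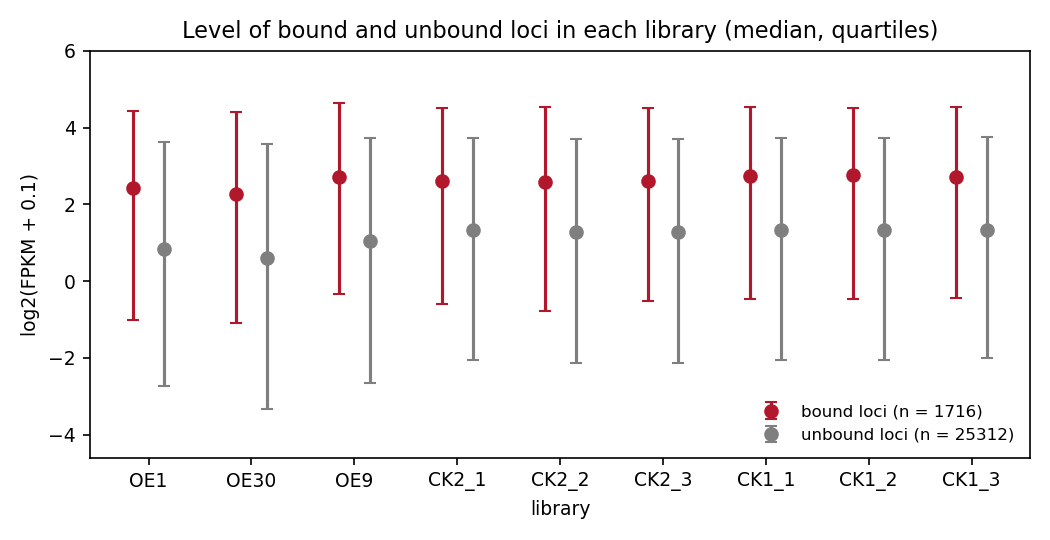
Median level (points) with the lower and upper quartile (bars) of 1716 bound and 25312 unbound loci in each library, on a log2(FPKM + 0.1) axis. The bound median lies above the unbound one in all 9 libraries, and the unbound median is lowest in the OE libraries.

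The difference lay in how often a locus was expressed as well as in its level. At 1 FPKM or more stood 69.2 ± 2.4% of bound loci in OE, 70.0 ± 0.6% in CK2 and 71.8 ± 0.1% in CK1 (SD, n = 3 each). Of the unbound loci, 55.0 ± 1.7% did so in OE, 59.0 ± 0.2% in CK2 and 59.1 ± 0.1% in CK1 (SD, n = 3 each). Across all 9 libraries, 1025 bound loci (59.7%) were at 1 FPKM or more throughout, against 11450 unbound loci (45.2%). A bound locus was not always active, since 214 of them (12.5%) stayed under 0.5 FPKM in every library, against 5366 unbound loci (21.2%). Together the bound loci took 11.7 ± 0.3% of the summed FPKM of all loci in OE, 10.1 ± 0.1% in CK2 and 11.1 ± 0.02% in CK1 (SD, n = 3 each). The values of OE and CK2 did not overlap, and all of these shares stood above the 6.35% of loci that the list holds.

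Read the other way round, the share of loci with a peak grew with the RNA level. Of the 2703 loci with the lowest mean log2 level over the 9 libraries, 96 (3.55%) were bound. Of the 2703 loci with the highest mean log2 level, 273 (10.1%) were bound. With loci cut into 10 groups of equal size by level, the groups between held 4.33%, 5.22%, 4.74%, 5.33%, 6.03%, 7.48%, 7.84% and 8.88%, with a single step down. The gradient was seen in each group of libraries by itself, with 3.74% in the lowest and 10.2% in the highest group when loci were ranked by OE, 4.14% and 9.77% when ranked by CK2, and 3.81% and 9.88% when ranked by CK1. It was therefore also present in the control libraries alone. Many loci at the low end are at or near 0 FPKM, where the rank says little, and loci with equal values were ranked in ID order. When ranked by OE, the group next to the lowest held 2.66%, below the lowest one.

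**Figure D2:**
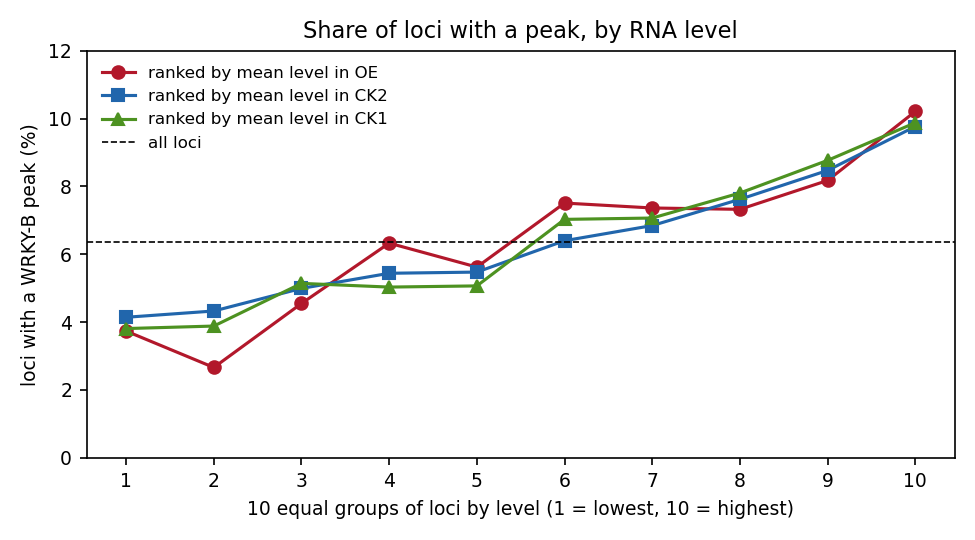
Share of loci with a WRKY-B peak (%) in 10 equal groups of all 27028 loci, ranked by mean log2 level in OE, CK2 or CK1. The share is 3.74% to 4.14% in the lowest and 9.77% to 10.2% in the highest group. The dashed line is the 6.35% over all loci.

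To ask whether loci with a peak differ between WRKY-B-GFP and control plants more often than others, each comparison was fitted over all gene models with limma-trend on log2(FPKM + 0.1), and calls needed both a 2-fold difference and an adjusted p under 0.05 (Benjamini-Hochberg). Bound loci were called about as often as the rest. In OE against CK2, 1340 bound loci were tested, of which 289 were higher and 328 lower, together 46.0% of those tested and 35.96% of all 1716. Of all gene models tested in that comparison 49.0% were called, 25.8% higher and 23.2% lower. Of the 17144 unbound loci tested, 3849 were higher and 4316 lower, or 47.6%. The bound share is near this background and is no result about bound loci. Their median log2 fold change was 0.03, against 0.04 for unbound loci. The size and the sign of the balance between directions rest on the settings. With median-ratio scaling, which moved the median gene model by −0.31 on the log2 scale, 226 bound loci were higher and 407 lower. Without the first, the second or the third CK2 library, 277, 276 or 274 were higher and 260, 262 or 268 lower, and without a fold threshold 457 were higher and 440 lower, so no direction is given for it. Some of the loci tested entered through a single group, with all 3 of its libraries at 0.5 FPKM or more and none of the other group, and had to differ. These were 35 bound loci through OE, of which 32 were called higher, and 46 through CK2, of which 44 were called lower. Of the unbound loci tested, 507 entered through OE alone, of which 490 were called higher, and 1561 through CK2 alone, of which 1549 were called lower. Such loci were a larger part of the unbound than of the bound loci tested.

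In OE against CK1, 234 of 1339 bound loci tested were higher and 327 lower, or 41.9%, where 39.2% of all gene models were called, 17.5% higher and 21.8% lower. Of the 16870 unbound loci tested, 2430 were higher and 4094 lower, or 38.7%. Here 17 bound and 293 unbound loci entered through OE alone, and 35 bound and 1102 unbound loci through CK1 alone. In CK2 against CK1, which involves no transgenic plants, 131 of 1335 bound loci tested were higher and 197 lower, or 24.6%, against 28.4% of unbound loci and 27.0% of all gene models, of which 13.0% were higher and 14.0% lower. Through CK2 alone entered 13 bound loci, 13 of them called higher, and 921 unbound loci, 898 of them higher. Through CK1 alone entered 30 bound loci, 26 of them called lower, and 757 unbound loci, 699 of them lower. These loci had to differ and were a larger part of the unbound loci tested, so the gap in shares is no result about bound loci. Median-ratio scaling moved the median gene model of this comparison by 0.22 and turned its balance round, to 183 bound loci higher and 141 lower, so no direction is given for it. In OE against CK1 the same scaling moved the median gene model by −0.13. The comparisons with OE share the OE libraries, and those with the same control share that control.

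Taken over all levels, large changes were rarer among bound loci than among unbound loci in all 3 comparisons. A log2 fold change of 3 or more in size was found at 128 bound loci (9.55%) in OE against CK2, against 13.9% of unbound loci. In OE against CK1 it was found at 92 bound loci (6.87%), against 9.31% of unbound loci. In CK2 against CK1 it was found at 39 bound loci (2.92%), against 9.29% of unbound loci. The bound loci had fewer members at low levels, where the median size of change was larger, and the part of this in the result was not tested. At a mean log2 level below 0.9 FPKM the median size was smaller at bound than at unbound loci in all 3 comparisons. From 3.9 FPKM upwards it was larger at bound loci in both OE comparisons, and mixed in CK2 against CK1. Between 15.9 and 63.9 FPKM it was 0.91 at bound and 0.78 at unbound loci in OE against CK2. In OE against CK1 it was 0.77 and 0.65 there. Loci that entered through 1 group alone had to differ, and they were a larger part of the unbound than of the bound loci tested. In CK2 against CK1, 13 bound and 921 unbound loci entered through CK2 alone, and 30 bound and 757 unbound loci through CK1 alone. Their part in the large changes was not tested.

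Within ranges of mean log2 level, with edges given in FPKM, the bound and the unbound loci came apart in several places. A locus high in 1 group and very low in another can have a low mean log2 level. The ranges thus depend in part on the changes counted in them. Among loci with a mean log2 level below 0.9 FPKM, 58.4% of 125 bound loci were called in OE against CK2. Of 2575 unbound loci, 67.8% were called. Lower calls were at 30.4% of bound and 44.9% of unbound loci. Higher calls went the other way round, at 28.0% of bound and 22.9% of unbound loci. Between 15.9 and 63.9 FPKM the order was the opposite, with 45.1% of 364 bound loci called, against 37.7% of 3848 unbound loci. The gap was in the lower calls, which took 24.5% of bound and 16.8% of unbound loci, while the higher calls took 20.6% of bound and 20.9% of unbound loci. In OE against CK1 the same range gave 38.5% of bound and 29.5% of unbound loci, here with higher calls at 19.0% of bound and 13.4% of unbound loci and lower calls at 19.5% of bound and 16.1% of unbound loci. A gap of the same sign was seen between the control groups. In CK2 against CK1, 17.9% of bound and 12.4% of unbound loci were called in that range, and 20.9% of 158 bound and 12.4% of 1238 unbound loci at 63.9 FPKM or more. No test was run on these shares, since loci are not replicates. The shares also hold loci that entered through 1 group alone and had to differ. In OE against CK2, over all levels, 46 bound and 1561 unbound loci entered through CK2 alone, and 44 and 1549 of these were called lower. How many of them lay below 0.9 FPKM was not counted, so no result is drawn from the gap there.

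**Figure D3:**
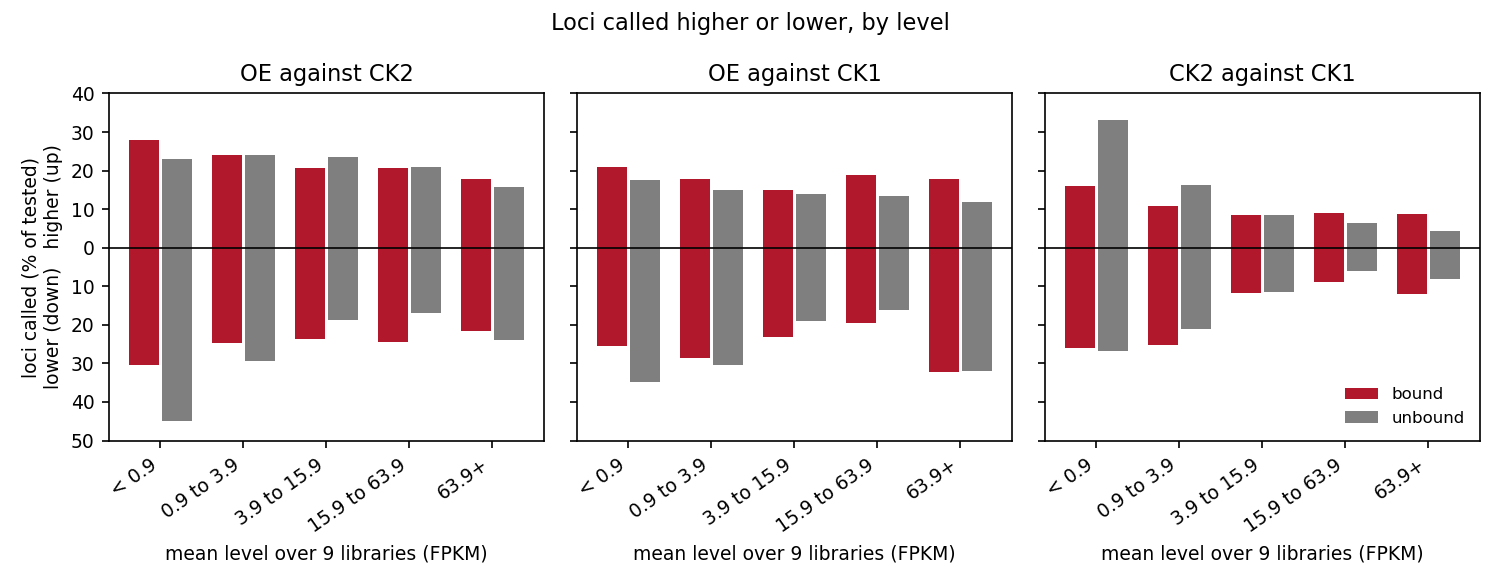
Loci called higher (up) and lower (down), as a percentage of the loci tested, in 3 comparisons. The 5 ranges are of mean log2 level, with edges given in FPKM, and bound loci stand left of unbound loci in each. Between 15.9 and 63.9 FPKM the total is larger for bound loci in each comparison, 45.1% against 37.7% in OE against CK2, 38.5% against 29.5% in OE against CK1 and 17.9% against 12.4% in CK2 against CK1.

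Of the 1302 bound loci tested against both controls, 187 (14.4%) were higher in OE both times, where 15.7% of all gene models were, and 221 (17.0%) were lower both times, where 13.0% of all gene models were. Among unbound loci the shares were 12.7% higher and 14.6% lower. A further 6 bound loci (0.461%) were called in opposite directions, against 0.483% of unbound loci, and 579 (44.5%) in neither comparison, against 46.3% of unbound loci. Without any test, all 3 OE values lay above all 6 control values at 387 bound loci (22.6%), against 19.4% of unbound loci and 23.5% of all gene models. They lay below all 6 control values at 383 bound loci (22.3%), against 18.7% of unbound loci and 18.1% of all gene models. A switch from off to on, at 1 FPKM or more in every OE library and at most 0.1 FPKM in every control library, occurred at 2 of 1716 bound loci and at 21 of 25312 unbound loci. The opposite switch occurred at 0 of 1716 bound loci and at 126 of 25312 unbound loci (0.498%).

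The IDs are not paired with gene names in the sources used here, so 5 bound loci are given by ID, chosen by rule. Picked for the size of their change or for their level, they do not stand for the other bound loci. The p-values of the higher and lower loci rest on the values that chose them and are no further support. Among bound loci called in the same direction against both controls, with separate OE and control values and at least 5 FPKM on average in the higher group, 149 were higher and 167 lower. Given are the 2 higher and the 2 lower loci whose smaller fold change of the 2 comparisons was the largest. The share of all gene models that pass this rule was not counted, so the counts are no result about bound loci. By the same direction alone, 14.4% of bound loci and 15.7% of all gene models tested against both controls were higher. By the same direction alone, 17.0% of bound loci and 13.0% of all gene models were lower. Solyc01g105410.3 had 1135, 1712 and 875 FPKM in OE1, OE30 and OE9, against 57.6, 57.5 and 54.6 FPKM in CK2 and 99.4, 90.1 and 92.7 FPKM in CK1. Every OE value was thus several times above every control value, with log2 fold changes of 4.40 ± 0.24 against CK2 (SE, adjusted p = 1.96e-05, limma-trend) and 3.66 ± 0.24 against CK1 (SE, adjusted p = 7.91e-05, limma-trend). It also differed between the controls, by −0.73 for CK2 minus CK1 (adjusted p = 1.04e-05, limma-trend), which is under the fold threshold. Solyc02g011990.1 had 2.16, 15.6 and 5.59 FPKM in OE1, OE30 and OE9, against 0.18, 0.18 and 0.35 FPKM in CK2 and 0.18, 0.26 and 0.53 FPKM in CK1. No CK2 library and 1 CK1 library reached 0.5 FPKM, so that against CK2 it entered the test through OE alone and could not be tested once an OE library was left out. The OE libraries differed widely from each other here, and the log2 fold change was 4.16 ± 0.70 against CK2 (SE, adjusted p = 0.00215, limma-trend) and 3.88 ± 0.72 against CK1 (SE, adjusted p = 0.00418, limma-trend).

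Among the bound loci with lower values, Solyc05g014000.3 had 2.29, 0.31 and 4.74 FPKM in OE1, OE30 and OE9, against 333.9, 315.7 and 314.3 FPKM in CK2 and 74.2, 79.0 and 81.1 FPKM in CK1. It fell by 7.58 ± 0.86 on the log2 scale against CK2 (SE, adjusted p = 0.000384, limma-trend) and by 5.54 ± 0.85 against CK1 (SE, adjusted p = 0.00187, limma-trend). The controls themselves stood apart at this locus, with a log2 fold change of 2.04 for CK2 against CK1 (adjusted p = 7.76e-08, limma-trend). Solyc10g086520.2 had 0.61, 0.20 and 0.66 FPKM in OE1, OE30 and OE9, against 21.5, 23.0 and 23.0 FPKM in CK2 and 30.03, 31.6 and 28.7 FPKM in CK1. All its OE values were below 1 FPKM, and the log2 fold changes were −5.37 ± 0.37 against CK2 (SE, adjusted p = 4.96e-05, limma-trend) and −5.79 ± 0.37 against CK1 (SE, adjusted p = 6.99e-05, limma-trend). OE30 was the lowest library at both of these loci.

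The bound locus with the highest mean level, Solyc09g010800.4, had 4701, 6788 and 4361 FPKM in OE1, OE30 and OE9, against 3033, 3617 and 3360 FPKM in CK2 and 3310, 3186 and 3123 FPKM in CK1. The groups did not overlap, yet the log2 fold changes of 0.64 ± 0.29 against CK2 (SE, adjusted p = 0.0881, limma-trend) and 0.69 ± 0.28 against CK1 (SE, adjusted p = 0.0673, limma-trend) did not pass the test. Under the alternative settings the adjusted p (limma-trend) ran between 0.0156, with the controls pooled, and 0.408 against CK2, and between 0.0175, without OE30, and 0.249 against CK1. It was also under 0.05 with all 9 libraries in 1 fit (0.0354 against CK2 and 0.0283 against CK1) and without OE9 against CK1 (0.0360). The change stayed under 2-fold in all of these. Taken one locus at a time, an exact two-sided permutation test of 3 against 3 libraries cannot go below p = 0.1.

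**Figure D4:**
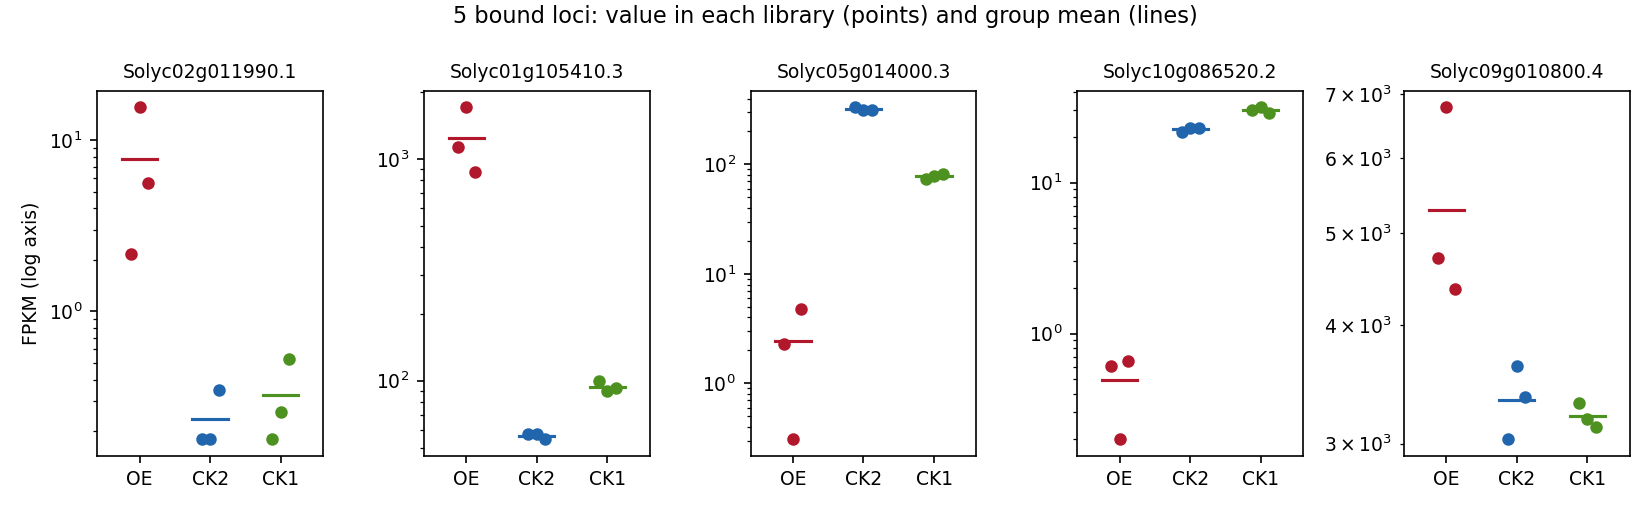
FPKM of 5 bound loci in each library (points, log axis) with the group means (lines), in OE, CK2 and CK1. The OE values of the first pair of loci lie above and those of the second pair below all control values, and Solyc09g010800.4 is the bound locus with the highest mean level, with OE values of 4361 to 6788 FPKM.

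The OE libraries were not alike at the bound loci. Among the 1203 bound loci with a mean of at least 1 FPKM in OE, OE9, whose tag the peaks carry and whose WRKY-B level was the highest, had the highest value of the 3 at 51.1%. Among 14071 unbound loci it was the highest at 40.9%. OE30 was the lowest of the 3 at 47.9% of bound loci and 43.5% of unbound loci, though its WRKY-B level, 93.5 FPKM, was above the 74.0 FPKM of OE1. A link of these ranks to the WRKY-B level or to the peaks was not tested. At the median bound locus OE9 lay 0.24 above the mean of the other OE libraries on the log2 scale, against 0.10 at the median unbound locus. With median-ratio scaling, tried after this was seen, OE9 was the highest at 42.1% of bound and 30.6% of unbound loci. Within the ranges of level from 0.9 FPKM upwards the gap was 8.51 to 14.7 percentage points, and below 0.9 FPKM, with 55 bound loci, it was 3.59. A single library per number gives no error for this difference. The median SD on the log2 scale within OE was 0.34 at bound and 0.28 at unbound loci, within CK2 0.09 at bound and 0.10 at unbound loci, and within CK1 0.07 at bound and 0.08 at unbound loci.

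The peaks were spread over all chromosomes. On chromosomes 1 to 12 between 5.08% (chromosome 12) and 7.74% (chromosome 2) of loci were bound. On chromosome 0, the name of the tomato assembly for sequence that is anchored to no chromosome, 40 of 253 loci (15.8%) were bound. A further 53 of the 93 listed loci of chromosome 0 had no gene model to match.

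**Figure D5:**
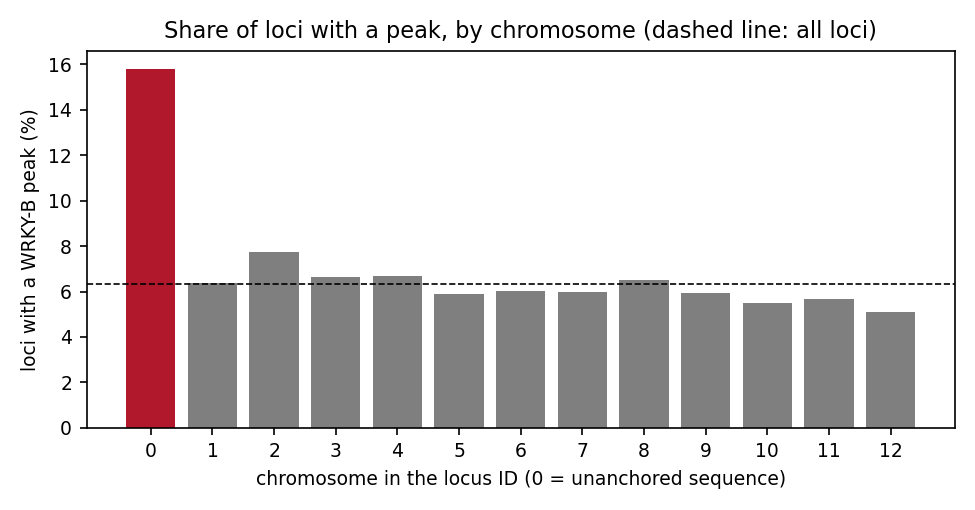
Share of loci with a WRKY-B peak (%) on each chromosome, by the chromosome number in the locus ID, with chromosome 0 in red. Chromosome 0 stands at 15.8%, the others lie between 5.08% and 7.74%, and the dashed line is the 6.35% over all loci.

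The bound loci of chromosome 0, looked at after this share was seen, had higher levels in OE. Their FPKM summed to 119.8, 151.1 and 120.9 in OE1, OE30 and OE9, against 74.5, 63.6 and 66.9 in CK2 and 55.9, 61.3 and 53.2 in CK1. Each OE sum was above every control sum, while the 213 unbound loci of chromosome 0 summed to 2062 to 2307 FPKM in OE, 5458 to 5613 FPKM in CK2 and 2497 to 2534 FPKM in CK1. In OE against CK2, 7 of the 15 bound loci tested there were higher and 1 was lower, whereas 30 of 114 unbound loci were higher and 29 lower. In OE against CK1, 10 of 15 were higher and 0 lower, whereas 20 of 116 unbound loci were higher and 34 lower. In CK2 against CK1, 1 of 13 was higher and 0 lower. The filter fixed part of these counts, since 2 of the higher loci against each control, and the 1 in CK2 against CK1, were tested through the higher group alone. Without a filter, tried after this was seen, 5 of all 40 were higher and 1 lower in OE against CK2, and 12 were higher and 0 lower in OE against CK1, whereas 34 of 213 unbound loci were higher and 32 lower against CK2, and 23 were higher and 35 lower against CK1. Most of the 40 loci were low, with a median of 0.33 to 0.86 FPKM in OE and 0.15 to 0.31 FPKM in the controls.

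Bound loci tended to lie side by side. With loci in ID order, the next locus was bound for 214 of 1715 bound loci (12.5%), against 1499 of 25300 unbound loci (5.92%). In stretches of at least 2 bound loci in a row stood 391 bound loci (22.8%). Unbound loci next to a bound locus, 2869 in number, had medians of 2.17 to 3.48 FPKM over the 9 libraries, above the 1.34 to 2.32 FPKM of the 22443 other unbound loci and below the bound loci. They were called in 47.2% of cases in OE against CK2, 39.7% in OE against CK1 and 26.8% in CK2 against CK1. The other unbound loci were called in 47.7%, 38.5% and 28.6% of cases, so these shares are near the background.

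The longest stretches had 4 bound loci, and there were 4 of them. In the stretch from Solyc07g063830 to Solyc07g063870 neighbours went opposite ways. Its second locus had 158.7, 190.5 and 239.6 FPKM in OE1, OE30 and OE9, against 22.4, 21.6 and 22.9 FPKM in CK2 and 59.1, 60.5 and 58.8 FPKM in CK1, and was called higher against both. The next locus had 5.79, 4.28 and 5.68 FPKM in OE1, OE30 and OE9, against 14.0, 12.3 and 11.5 FPKM in CK2 and 16.9, 14.1 and 14.3 FPKM in CK1, and was called lower against both. Its last locus was called higher against both, with log2 fold changes of 2.48 against CK2 and 2.38 against CK1, and its first was called in neither comparison.

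In the stretch from Solyc02g084990 to Solyc02g085010 it was CK2 that stood apart. The first locus had 60.5, 52.4 and 57.3 FPKM in OE1, OE30 and OE9, against 196.1, 186.8 and 183.8 FPKM in CK2 and 64.7, 69.6 and 68.6 FPKM in CK1. The next had 3.68, 4.32 and 4.34 FPKM in OE1, OE30 and OE9, against 38.0, 35.7 and 34.3 FPKM in CK2 and 5.97, 5.82 and 5.77 FPKM in CK1. Both were called lower in OE against CK2 and higher in CK2 against CK1, and neither was called in OE against CK1. In the stretch from Solyc07g042130 to Solyc07g042170 the first and the last locus were called lower in OE against CK1 only. The stretch from Solyc00g014790 to Solyc00g014830 was at or below 1.10 FPKM in all libraries and none of its loci was tested.

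Over all neighbouring pairs of bound loci tested in OE against CK2, 16 of 131 (12.2%) were called in the same direction and 14 (10.7%) in opposite directions. Of the pairs of neighbouring unbound loci, 14.2% were called in the same direction and 9.38% in opposite directions. In OE against CK1 the same direction was found in 18 of 137 bound pairs (13.1%) and 10.0% of unbound pairs, and in CK2 against CK1 in 6 of 131 bound pairs (4.58%) and 6.01% of unbound pairs.

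The table gave a further view of the bound loci as gene models. A second gene model was listed at 331 bound loci (19.3%), against 6182 unbound loci (24.4%), and fragments could be split between such models. Where both models of a bound locus were tested in OE against CK2, 198 loci, both were called in the same direction at 52 (26.3%), in opposite directions at 8 (4.04%) and only one of them at 76 (38.4%). The shares were 26.1%, 2.90% and 39.7% of 3417 unbound loci. Gene span, known for 396 bound loci with positions on build SL3.0, had a median of 5683 bp (quartiles 3809 and 8493 bp), against 6487 bp (4276 and 10527 bp) for 7579 unbound loci. Together these loci are as many as the gene models with 2 suffixes in the ID (7975). The span thus need not be that of the gene model whose FPKM represents the locus. The plus strand held 49.5% of these bound and 50.2% of these unbound loci.

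A single locus of the study's overlap list of 510 bound and changed loci, Solyc11g069030, has no peak row and was therefore not counted as bound. Its gene model Solyc11g069030.2 was listed at 0 FPKM in all 3 OE libraries, at 0, 0 and 0.47 FPKM in CK2 and at 0.23, 0 and 0 FPKM in CK1, and was too low to be tested.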

How the data were processed

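Expression was deposited as FPKM, calculated by the authors for 33989 gene models in each library and given to 2 decimals. The submitters' processing notes name DESeq2 1.4.5, RSEM 1.2.12, Bowtie2 2.2.5 and HISAT2 2.0.4, with no role or order. Deposited columns of the authors' own comparisons (log2 fold changes, p-values and q-values) were not used, nor were the enrichment values of the peak list. None of the 41476 genes of the reference name table matched, and peak positions and sequences were not used here.

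A locus was represented by its gene model with 1 suffix in the ID, otherwise by that with 2. All tests used limma-trend (limma 3.58.1, R 4.3.3) on log2(FPKM + 0.1), fitted only to the libraries compared, for gene models that reached 0.5 FPKM in 3 of them, and adjusted over all gene models. The added 0.1 understates changes at low levels. Summaries used Python 3.11.15 with numpy 2.4.6 and pandas 2.3.3. The fit was tested on simulated data with the same spread in both groups of a comparison. The spread within OE was wider than within the controls, and that setting was not tested. The members, lists and rules were chosen with earlier results of these data known. Loci were named as WRKY-B, the 2 higher and 2 lower bound loci with the largest smaller-of-2 fold change that passed the stated rule, and the bound locus with the highest mean. P-values measure the spread between these libraries. Alternatives were another pseudocount, no filter, 1 fit of all libraries, no fold threshold, unadjusted p, pooled controls, left-out libraries, median-ratio scaling, summed gene models, no chromosome 0 and a replicate block. Tests that need counts could not be run.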

Additional observations from a re-analysis of the deposited data

How the results depend on the processing

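Under the alternative settings 366 values were graded the same as the main one, 8 stronger, 3 moved and 1 reversed. Many of these values are counts of loci, which have no direction, and a count graded the same could still move. Bound loci higher in OE against CK2, for example, went from 289 to 226 with median-ratio scaling. Without a fold threshold, 457 bound loci were higher in OE against CK2 and 374 in OE against CK1, and 961 were called in CK2 against CK1, 373 higher and 588 lower. In total 66.9% of bound and 68.3% of unbound loci then passed in OE against CK2, 62.1% of each in OE against CK1, and 72.0% of bound and 71.5% of unbound loci in CK2 against CK1. The gap between bound and unbound loci at 1 FPKM or more, 12.6 percentage points over the 9 libraries, was 10.0 with summed gene models. WRKY-B in CK2 against CK1 was at −1.17 with an adjusted p of 0.0510 (limma-trend), and at −1.17 with summed gene models (adjusted p = 0.0382, limma-trend). It entered this comparison through CK1 alone, with every CK2 and CK1 value under 1 FPKM, so it had to differ and no result is drawn from these p-values. Leaving out 1 CK2 library at a time gave −1.41 to −0.68, and without a CK1 library it could not be tested. For the bound loci, leaving out 1 library gave 537 to 618 calls in OE against CK2, 476 to 582 in OE against CK1 and 299 to 316 in CK2 against CK1. Solyc09g010800.4, at 0.05 in CK2 against CK1, was −0.00606 to 0.121 when 1 library was left out, the negative value without the second CK2 library. The share of bound loci called exceeded the unbound share in 8 of 15 settings for OE against CK2, in 14 of 14 for OE against CK1 and in 1 of 15 for CK2 against CK1, so the first of these has no stable sign. In OE against CK1 the excess was as small as 0.0079 percentage points. The settings reuse the same libraries, so the number of settings that go 1 way is no further support. Where the filter was kept, these shares still hold loci that entered through 1 group alone and had to differ. Same-numbered CK2 and CK1 libraries did not deviate together (r = −0.04 to −0.01 over 15838 loci, which are not replicates). With the replicate block, 328 bound loci were called in CK2 against CK1, as without it, and WRKY-B was at −1.17 (adjusted p = 0.0297, limma-trend). OE shares fewer than 2 numbers with the controls. Read totals were not given, so no counting error could be set for low values.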
